A study of Mus musculus with 20 samples.

Results

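Ogn, Aspn, Omd, Ecm2, Dcn, Bgn, Lum, Fmod and Prelp, 9 of the 26722 genes in the count table, encode small leucine-rich proteoglycans or close relatives of them. They were chosen by name. Ogn and Aspn entered the set because they had been found higher in C2C12 myotubes given agrin with the antibody 11-3F6xb12, and the other 7 were added to ask whether the chromosomal neighbours and the rest of the family did the same, library by library. The difference of Ogn and Aspn between 11-3F6xb12 and the other treatments is therefore the reason for their choice and is given below as a description, with no test. All 9 genes had enough counts to be tested, as had 14605 genes in all.

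The cells were C2C12, an established mouse myoblast line that fuses into myotubes. Differentiation lasted 5 days and treatment 16 h. The 5 treatments bear on muscle-specific kinase (MuSK), the receptor through which nerve-derived agrin builds the neuromuscular synapse. The control received 7.7 nM of b12, a human IgG4 antibody used as a negative control, with no agrin, and another group received 7.7 nM of bivalent 13-3B5, which activates MuSK, also with no agrin. The remaining groups received 0.1 nM of neural agrin and 7.7 nM of antibody, which was b12 (called agrin below), 13-3B5xb12 or 11-3F6xb12, the last 2 being monovalent antibodies that inhibit MuSK. Every treatment had 4 libraries, numbered 1 to 4, of the same cell line. What a shared number stands for is not stated, nor whether replicates were separate cultures, so p-values measure the spread between these libraries.

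Small leucine-rich proteoglycans are secreted proteins of the extracellular matrix, built around a curved stack of leucine-rich repeats, and many carry chondroitin, dermatan or keratan sulfate chains. They bind collagen fibrils and set their thickness and spacing, and several also bind growth factors of the transforming growth factor beta (TGF-beta) family. In muscle, decorin, the product of Dcn, is a well studied member and binds myostatin and TGF-beta. Osteoglycin, the product of Ogn, is secreted by muscle cells among others and has been studied as a factor acting on bone.

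The genes Ecm2, Aspn, Omd and Ogn lie side by side on mouse chromosome 13, all on the plus strand, within 119692 bases of the GRCm38 build. Ecm2 lies at chr13:49504810-49532789, Aspn at chr13:49544443-49567565, Omd at chr13:49582462-49592822 and Ogn at chr13:49608046-49624501. The gaps between them are 11653, 14896 and 15223 bases. The 250 bases upstream of the RefSeq start of each of these neighbours are shown because the question was whether they moved together. They were taken from RefSeq promoter records for GRCm38.p6, which matched 7 of the 9 members, and are written 5′ to 3′ on the plus strand. Capitals mark matches of TATAAA or CANNTG (the E-box, which muscle transcription factors of the MyoD family can bind) on either strand. The windows are chr13:49607765-49608014 for Ogn, chr13:49544193-49544442 for Aspn, chr13:49582212-49582461 for Omd and chr13:49504560-49504809 for Ecm2.
Ogn: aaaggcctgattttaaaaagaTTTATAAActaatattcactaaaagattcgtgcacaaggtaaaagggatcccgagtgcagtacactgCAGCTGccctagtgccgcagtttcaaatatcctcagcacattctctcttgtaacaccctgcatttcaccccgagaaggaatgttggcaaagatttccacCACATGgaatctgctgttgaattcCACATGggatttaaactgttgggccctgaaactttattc
Aspn: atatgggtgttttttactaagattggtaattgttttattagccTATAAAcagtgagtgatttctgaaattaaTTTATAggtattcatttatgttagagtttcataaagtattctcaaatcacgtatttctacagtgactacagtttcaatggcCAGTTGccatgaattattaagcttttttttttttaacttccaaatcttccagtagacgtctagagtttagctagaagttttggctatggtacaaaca
Omd: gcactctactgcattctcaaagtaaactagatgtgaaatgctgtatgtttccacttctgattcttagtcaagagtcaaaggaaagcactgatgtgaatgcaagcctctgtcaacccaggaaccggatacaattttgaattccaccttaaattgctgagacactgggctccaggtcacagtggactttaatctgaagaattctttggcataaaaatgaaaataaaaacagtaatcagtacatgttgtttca
Ecm2: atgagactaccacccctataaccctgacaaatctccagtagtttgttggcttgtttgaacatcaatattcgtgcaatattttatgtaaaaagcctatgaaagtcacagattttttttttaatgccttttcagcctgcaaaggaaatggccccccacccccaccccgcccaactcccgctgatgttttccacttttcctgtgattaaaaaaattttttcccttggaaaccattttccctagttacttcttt

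TATAAA was found at 2 positions in the Ogn window, overlapping on opposite strands, and at 2 positions in the Aspn window, against 12.4% of the 32851 upstream windows of the same length that held it at least once. CANNTG was found at 3 positions upstream of Ogn and at 1 upstream of Aspn, a motif present in 66.2% of all windows. Neither motif was in the Omd or Ecm2 window. TGANTCA, the MEF2 motif and the CArG box were in none of these windows and were in 6.75%, 2.92% and 1.47% of all windows. Matches of short motifs describe the letters only, and binding to these windows was not measured here. The share of G and C was 42% for Ogn, 30% for Aspn, 38.4% for Omd and 40% for Ecm2, against a median of 52.4% over all windows.

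The other members lie elsewhere in GRCm38. Dcn (chr10:97479609-97518143) and Lum (chr10:97565128-97572703) are next to the family members Kera and Epyc, Fmod (chr1:134037254-134048277) and Prelp (chr1:133910304-133921414) are on the same chromosome as Optc, and Bgn is at chrX:73483602-73495933.

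Total counts were 18424881 to 23343903 per library, and 3 counts, taken as the limit of detection, corresponded to 0.125 to 0.161 CPM (counts scaled to a common library total, with trimmed mean of M-values factors). The first principal component of all libraries separated replicates 1 and 2 from replicates 3 and 4 in every treatment, and the libraries of agrin with 13-3B5xb12 replicate 1 and control replicate 2 stood apart on the second. Markers of the labelled cell type were abundant, with 12 myotube genes summing to 7004 to 9160 CPM per library. Among markers of other matrix-producing cells, the tendon gene Tnmd and the bone gene Alpl were at 0 in 19 of 20 libraries each, the bone gene Bglap in 14, and the fibroblast genes Col15a1 and Thy1 in 17 and 16. Other markers of these cells had over 3 counts in all 20 libraries, among them the tendon transcription factor genes Scx (229 to 315 CPM) and Mkx (3.20 to 7.20 CPM), the bone genes Phex (11.2 to 23.1 CPM) and Runx2 (1.74 to 6.36 CPM), and the fibroblast genes Gsn (542 to 682 CPM), Ly6a (181 to 323 CPM) and Pdgfra (11.6 to 22.6 CPM). The summed level of the fibroblast markers (7 of 8 listed were in the table) was 902 to 963 CPM with 11-3F6xb12, 887 to 957 CPM with agrin and 839 to 935 CPM with agrin and 13-3B5xb12, so the groups overlapped. A panel of 10 liver genes summed to 28.6 CPM in agrin replicate 3 and to at most 0.861 CPM in every other library, and the part of that library's other RNA in the results was not tested beyond leaving it out. In bulk RNA, fewer cells of a type and less RNA per cell cannot be told apart.

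Ogn and Dcn were the most abundant members per length, with 158 ± 44.3 and 145 ± 13.3 CPM per kb of exon (SD, n = 20 libraries). With the longest annotated transcript as the length, Dcn came first at 181 CPM per kb and Ogn stayed at 158. Bgn followed at 27.6 ± 5.46, then Aspn at 6.59 ± 2.94, Lum at 3.32 ± 0.907, Prelp at 3.17 ± 0.887, Omd at 2.36 ± 1.11, Ecm2 at 0.745 ± 0.224 and Fmod at 0.254 ± 0.202 CPM per kb. Neighbours in this order that did not differ beyond their spread were Ogn and Dcn, Lum and Prelp, and Prelp and Omd.

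**Figure D1:**
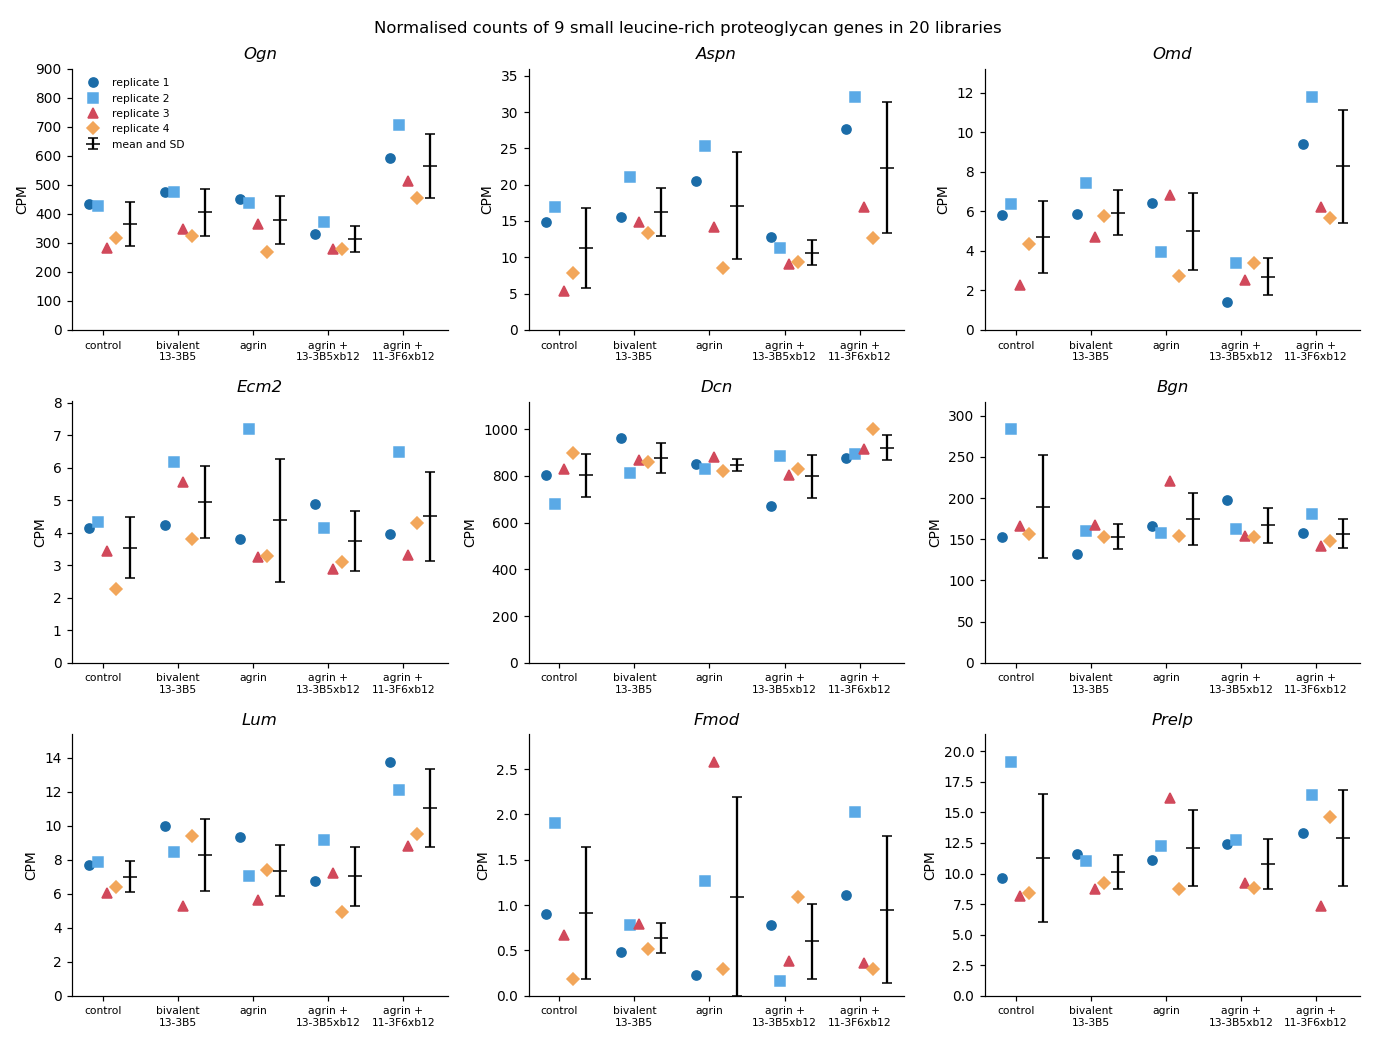
Normalised counts (CPM, linear axis from 0) of the 9 genes in 20 libraries, by treatment. Each point is a library, its colour and shape give the replicate number, and the bar beside each group is the mean with its SD (n = 4). Ogn is between 453 and 707 CPM with agrin and 11-3F6xb12, and replicates 1 and 2 lie above 3 and 4 in each treatment.

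The plot of levels by library shows the values that the following paragraphs give in order of the genes' place and role. Ogn stood at 591, 707, 512 and 453 CPM in replicates 1 to 4 with agrin and 11-3F6xb12. It stood at 450.0, 435, 363 and 269 CPM with agrin, at 329, 371, 277 and 278 CPM with agrin and 13-3B5xb12, at 432, 425, 283 and 316 CPM in the control, and at 474, 474, 347 and 324 CPM with bivalent 13-3B5. Replicate 4 with 11-3F6xb12 lay just above the highest agrin library, so that these groups did not overlap. That held in the same direction for 1.66% of all tested genes, a share against which Ogn, chosen for this difference, is not read. The same library lay below 2 of the bivalent 13-3B5 libraries, yet within each replicate number the 11-3F6xb12 library was the highest of the 5. The mean was 565 ± 109.8 CPM with 11-3F6xb12, and the order below it was bivalent 13-3B5 (405 ± 80.5), agrin (379 ± 82.8), control (364 ± 75.7) and agrin with 13-3B5xb12 (314 ± 45.3 CPM, SD, n = 4 each). Neighbours in that lower order differed by less than the larger of their SDs. As a description, the log2 fold change of 11-3F6xb12 was 0.58 (SE 0.20) against agrin, 0.63 (SE 0.20) against the control, 0.85 (SE 0.20) against 13-3B5xb12 and 0.48 (SE 0.20) against bivalent 13-3B5.

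Aspn encodes asporin, which binds collagen and TGF-beta and carries a run of aspartate residues. It was at 27.6, 32.1, 17.0 and 12.7 CPM with 11-3F6xb12 and at 20.5, 25.3, 14.1 and 8.45 CPM with agrin. With 13-3B5xb12 it was at 12.8, 11.2, 9.12 and 9.30 CPM, in the control at 14.9, 17.0, 5.37 and 7.87 CPM, and with bivalent 13-3B5 at 15.6, 21.0, 14.9 and 13.4 CPM. The 11-3F6xb12 group overlapped each other group, and its replicates 3 and 4 lay among the replicates 1 and 2 of other treatments. The described log2 fold changes were 0.39 (SE 0.37) against agrin, 0.98 (SE 0.38) against the control, 1.07 (SE 0.38) against 13-3B5xb12 and 0.46 (SE 0.38) against bivalent 13-3B5.

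In the comparisons without 11-3F6xb12, neither gene passed the test. With edgeR's quasi-likelihood test and Benjamini-Hochberg adjustment over all genes, Ogn differed by −0.27 on the log2 scale (SE 0.20, adjusted p = 0.999) between 13-3B5xb12 and agrin and by 0.06 (SE 0.20, adjusted p = 1.00) between agrin and the control. For Aspn the same comparisons gave −0.69 (SE 0.38, adjusted p = 0.999) and 0.60 (SE 0.38, adjusted p = 1.00). Bivalent 13-3B5 against the control gave 0.15 (SE 0.20) for Ogn and 0.52 (SE 0.38) for Aspn, with an edgeR adjusted p of 0.999 for both. With the replicate number added to the model, edgeR called no member in these comparisons either. At an unadjusted p under 0.05, 3 of 9 members were then lower with 13-3B5xb12 than with agrin (2.92% of all genes). In the same fit, 3 of 9 were higher with bivalent 13-3B5 than in the control (1.89%). Leaving out Ogn and Aspn, 1 of 7 remained in each, so both genes were among the 3.

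Omd encodes osteomodulin, a keratan sulfate proteoglycan of mineralised matrix, and lies between Aspn and Ogn. Its levels were 9.42, 11.8, 6.24 and 5.64 CPM with 11-3F6xb12 (135 to 239 counts) and 1.42, 3.39, 2.54 and 3.40 CPM with 13-3B5xb12 (31 to 78 counts). These groups did not overlap, a pattern that 1.44% of all tested genes showed in the same direction. The mean was 8.28 ± 2.88 against 2.69 ± 0.939 CPM, a log2 fold change of 1.62 (SE 0.33), and edgeR's adjusted p of 0.771 did not pass the threshold of 0.05.

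The remaining Omd levels lay between those extremes. They were 6.41, 3.94, 6.83 and 2.75 CPM with agrin, 5.82, 6.37, 2.25 and 4.34 CPM in the control and 5.86, 7.42, 4.70 and 5.78 CPM with bivalent 13-3B5. Each of these groups overlapped the 11-3F6xb12 group. The log2 fold change of 11-3F6xb12 was 0.73 (SE 0.32) against agrin, 0.81 (SE 0.32) against the control and 0.48 (SE 0.32) against bivalent 13-3B5, and that of 13-3B5xb12 against agrin was −0.89 (SE 0.33), with edgeR adjusted p-values from 0.999 to 1.00. The mean with agrin thus lay between those with the monovalent antibodies. The test of DESeq2 called Omd, and no other gene, between the monovalent antibodies (log2 fold change 1.62, adjusted p = 0.0389). Over all alternatives the adjusted p of this difference ran from 2.0e-07 with no filter on low counts to 1.00 in replicates 3 and 4 alone. It was larger in replicates 1 and 2 (2.15) than in replicates 3 and 4 (1.00), and was 1.41 without the 13-3B5xb12 replicate 1 library, which stood apart.

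Ecm2, which encodes a matrix protein with leucine-rich repeats, begins the cluster. It was at 3.96, 6.48, 3.32 and 4.31 CPM with 11-3F6xb12, at 3.82, 7.18, 3.25 and 3.29 CPM with agrin and at 4.89, 4.14, 2.88 and 3.10 CPM with 13-3B5xb12. In the control it was at 4.15, 4.32, 3.43 and 2.26 CPM, and with bivalent 13-3B5 at 4.23, 6.19, 5.58 and 3.81 CPM. Every group overlapped every other, and the highest library of all was agrin replicate 2. The log2 fold change of 11-3F6xb12 was 0.04 against agrin, 0.27 against 13-3B5xb12, 0.35 against the control and −0.13 against bivalent 13-3B5 (SE 0.28 each, edgeR adjusted p from 0.992 to 1.00). The difference in response between Ecm2 and the other genes of the cluster was not tested.

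**Figure D2:**
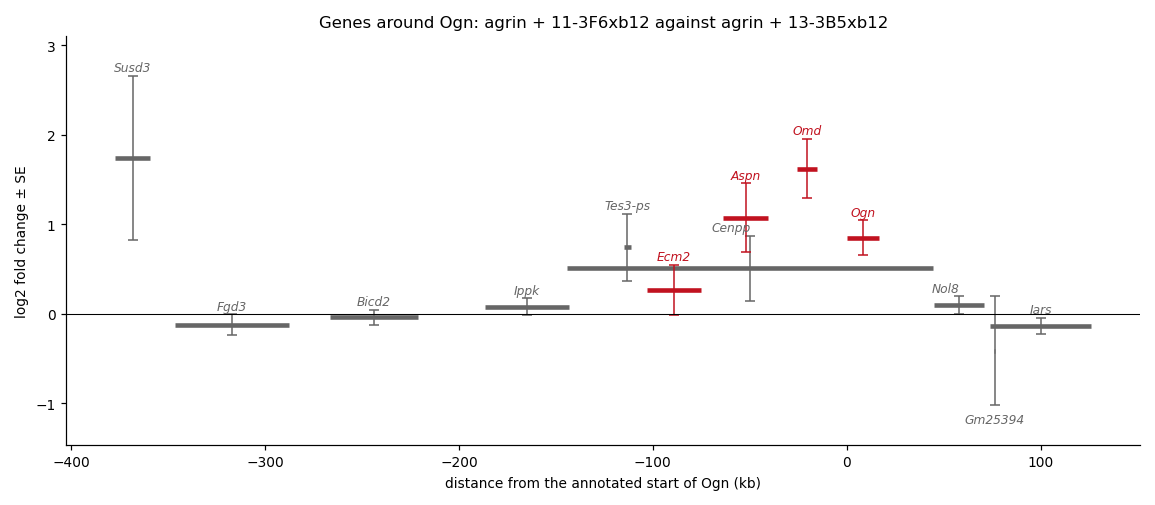
Log2 fold change (vertical axis, with SE) between agrin with 11-3F6xb12 and agrin with 13-3B5xb12 of the tested genes around Ogn, drawn against the distance in kb from the annotated start of Ogn. Horizontal bars span each gene, with the 4 proteoglycan genes in red and other genes in grey. Omd, Aspn and Ogn lie at 1.62, 1.07 and 0.85, Ecm2 at 0.27 and the genes next to the cluster, Nol8 and Tes3-ps, at 0.10 and 0.74, with Ippk beyond Tes3-ps at 0.08.

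The plot of the chromosome 13 neighbourhood sets these values beside the other tested genes within 300 kb of Ogn or Aspn. Cenpp, a centromere protein gene on the minus strand, spans all 4 proteoglycan genes (chr13:49464023-49652785). Its exons share 7 bases with those of Aspn and 0 with the others. Use of strand in the authors' counting is not given in the sources used here. Cenpp had 31 to 107 counts per library and a log2 fold change of −0.18 (SE 0.35) against agrin and 0.51 (SE 0.36) against 13-3B5xb12. Against 13-3B5xb12 the next genes outward were Nol8 at 0.10 (SE 0.10), Iars at −0.13 (SE 0.09), the small nucleolar RNA gene Gm25394 at −0.41 (SE 0.61), Tes3-ps at 0.74 (SE 0.37), Ippk at 0.08 (SE 0.09), Bicd2 at −0.04 (SE 0.09), Fgd3 at −0.12 (SE 0.12) and Susd3 at 1.74 (SE 0.92). None was called with edgeR at an adjusted p under 0.05. Susd3 had at most 38 counts in any library.

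Dcn and Bgn encode decorin and biglycan, the related chondroitin or dermatan sulfate proteoglycans. Dcn was at 877, 892, 915 and 998 CPM with 11-3F6xb12, at 852, 831, 883 and 822 CPM with agrin, at 672, 887, 805 and 829 CPM with 13-3B5xb12, at 804, 679, 831 and 898 CPM in the control and at 963, 812, 868 and 861 CPM with bivalent 13-3B5. The 11-3F6xb12 libraries were at the upper end and overlapped each other group. The log2 fold change was 0.12 against agrin, 0.20 against the control, 0.21 against 13-3B5xb12 and 0.07 against bivalent 13-3B5 (SE 0.08 each, edgeR adjusted p from 0.992 to 1.00). Bgn showed no such order. It was at 157, 181, 141 and 148 CPM with 11-3F6xb12, at 166, 158, 221 and 153 CPM with agrin and at 197, 163, 154 and 153 CPM with 13-3B5xb12. It stood at 153, 283, 166 and 156 CPM in the control and at 133, 161, 167 and 153 CPM with bivalent 13-3B5. Its log2 fold changes for 11-3F6xb12 were −0.15, −0.27, −0.09 and 0.04 against agrin, control, 13-3B5xb12 and bivalent 13-3B5 (SE 0.17 each, edgeR adjusted p from 0.992 to 1.00).

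Lum encodes lumican, a keratan sulfate proteoglycan that binds collagen. It was at 13.7, 12.1, 8.79 and 9.49 CPM with 11-3F6xb12, at 9.32, 7.04, 5.65 and 7.41 CPM with agrin and at 6.76, 9.14, 7.21 and 4.93 CPM with 13-3B5xb12. In the control it was at 7.68, 7.85, 6.03 and 6.38 CPM and with bivalent 13-3B5 at 9.99, 8.43, 5.27 and 9.38 CPM. The 11-3F6xb12 libraries lay wholly above the control libraries, as did 1.07% of all tested genes, and overlapped the other groups. The log2 fold change was 0.58 against agrin, 0.66 against the control, 0.65 against 13-3B5xb12 and 0.41 against bivalent 13-3B5 (SE 0.21 each), and edgeR's adjusted p was 0.992 to 1.00.

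Fmod and Prelp, which encode fibromodulin and the heparin-binding protein prolargin, varied more between libraries than between treatments. Fmod had 3 to 61 counts, with its highest level in agrin replicate 3 (2.57 CPM) and the next in 11-3F6xb12 replicate 2 (2.03 CPM). Its lowest level, 3 counts in 13-3B5xb12 replicate 2, was at the limit of detection. The log2 fold changes of Fmod for 11-3F6xb12 ran from −0.21 (SE 0.72) against agrin to 0.63 (SE 0.74) against 13-3B5xb12. Prelp ranged from 7.33 CPM in 11-3F6xb12 replicate 3 to 19.1 CPM in control replicate 2, and its log2 fold changes ran from 0.10 to 0.35 (SE 0.26 each). The highest Bgn and Prelp levels were in control replicate 2, and the second highest Bgn level and the highest Fmod level were in agrin replicate 3, the library with the liver transcripts. Without agrin replicate 3, the log2 fold change of Fmod against agrin turned from −0.21 to 0.66.

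Over the 7 members other than Ogn and Aspn, no gene was called in any of the 7 comparisons, and neither was any of the 14605 genes (percent called 0 with edgeR in each comparison, with 1.91% to 4.22% of genes at an unadjusted p under 0.05). At an unadjusted p under 0.05, Omd and Lum were higher against agrin (2 of 7, against 1.89% of all genes), and Omd, Lum and Dcn were higher against the control (3 of 7, against 1.44%) and against 13-3B5xb12 (3 of 7, against 2.37%). Against bivalent 13-3B5 it was 0 of 7, against 0.924%. The median log2 fold change of the 7 was 0.10 against agrin, where the median of all genes was 0.00, and 0.27 against 13-3B5xb12, where it was also 0.00. For 13-3B5xb12 against agrin the log2 fold change was below 0 for all 9 members, while 48.5% of all genes were above 0. The median of the 9 was −0.22 against −0.01 over all genes. Omd alone of the 9 had an unadjusted p under 0.05 (2.29% of all genes did in that direction). With the replicate number added to the model, 3 of 9 did, and 1 of 7 without Ogn and Aspn (2.92% of all genes), and none was called. The 8 markers of cycling cells also had log2 fold changes below 0 in 8 of 8, with a median of −0.38 for 13-3B5xb12 and −0.32 for 11-3F6xb12 against agrin, and 6 of 8 were above 0 between the monovalent antibodies (median 0.06). None was called with edgeR. Their summed level was 120 to 230 CPM with agrin, 115 to 192 CPM with 13-3B5xb12 and 109.8 to 202 CPM with 11-3F6xb12, so the groups overlapped, and their part in the result was not tested. The comparisons with agrin share its libraries, and those with 11-3F6xb12 share that group, so they are not independent. When the replicate number was added to the model as a block, edgeR called 2 genes against agrin (0.0137%) and 1 gene against bivalent 13-3B5 (0.00685%), Ogn in both, and no member other than Ogn, which was chosen for this.

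**Figure D3:**
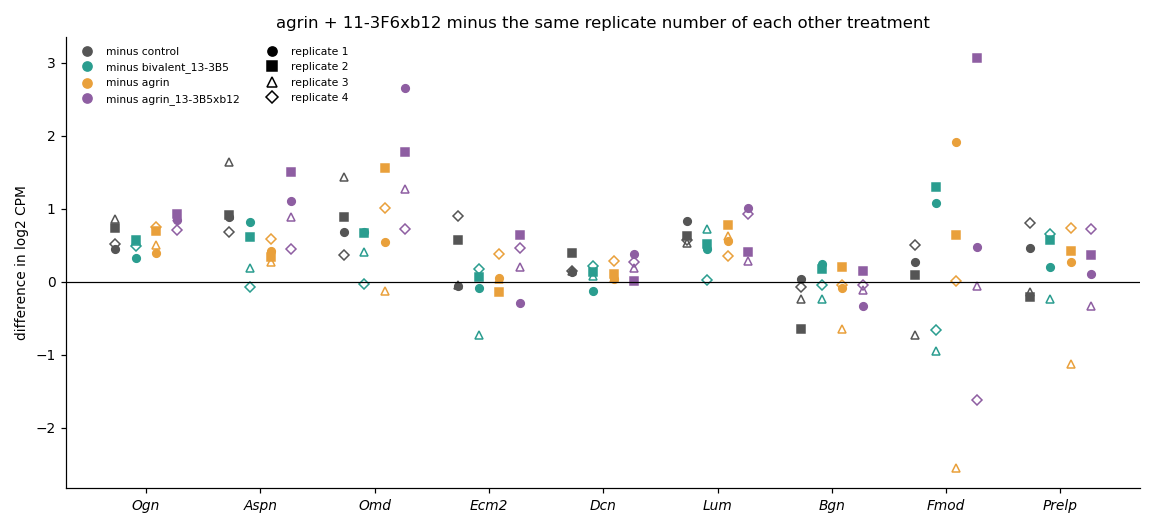
Difference in log2 CPM between each agrin with 11-3F6xb12 library and the library of the same replicate number in each of the other 4 treatments, 16 differences per gene. Colours give the treatment subtracted and symbols the replicate number, and points above 0 mean a higher level with 11-3F6xb12. All 16 are above 0 for Ogn and Lum, 15 for Aspn and Dcn, 14 for Omd, and 5 for Bgn.

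Library by library, as the plot of same-number differences shows, Lum was higher with 11-3F6xb12 in 16 of 16 differences from libraries of the same number, by 0.02 to 1.01 in log2 CPM. Of all tested genes, 0.322% were higher in 16 of 16. Ogn was among them, by 0.32 to 0.93, but was chosen for this difference and is not read against that share. Dcn was higher in 15 of 16, by a median of 0.14, and Omd in 14 of 16, by a median of 0.70. Aspn was higher in 15 of 16, Prelp in 11, Ecm2 and Fmod in 10 each, and Bgn in 5. For fewer than 16 of 16 the share over all genes was not computed, so these counts are a description. The 16 differences of a gene rest on 4 libraries with 11-3F6xb12 and are not independent.

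Members also differed between replicate numbers. Averaged over the 5 treatments, Ogn was at 455, 482, 356 and 328 CPM in replicates 1 to 4, Aspn at 18.3, 21.3, 12.1 and 10.3 CPM, and Ecm2 at 4.21, 5.66, 3.69 and 3.35 CPM. In each of these genes replicate 2 was highest and replicate 4 lowest. A joint edgeR test of the replicate numbers, with treatment in the model, called 1050 genes (7.19%), among them Ogn (adjusted p = 1.98e-07) and Aspn (adjusted p = 0.000151). Ecm2 (edgeR adjusted p = 0.0594), Lum (0.132), Prelp (0.218), Omd (0.60), Bgn (0.700), Fmod (0.711) and Dcn (0.785) did not pass. Without the 2 libraries that stood apart, 1762 of 14876 genes passed, and Ecm2 and Lum were among the 4 members that did.

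On the log2 scale, treatment accounted for 55.9% of the variation of Ogn over the 20 libraries, replicate number for 38.5% and the remainder for 5.64%. For Omd the shares were 56.3%, 8.99% and 34.7%, for Lum 43.7%, 29.9% and 26.5%, and for Dcn 35.5%, 10.1% and 54.4%. The share of number exceeded that of treatment for 5 of the 9 members. These were Ecm2 (50.1% and 19.5%), Aspn (44.3% and 39.4%), Prelp (35.9% and 8.59%), Bgn (17.8% and 16.4%) and Fmod (16.7% and 3.38%). The medians over genes with a mean log2 CPM above 1 were 17.1%, 19.2% and 58.3%. Ogn and Aspn were chosen for their level with 11-3F6xb12, so their treatment shares are a description and are not read against these medians.

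**Figure D4:**
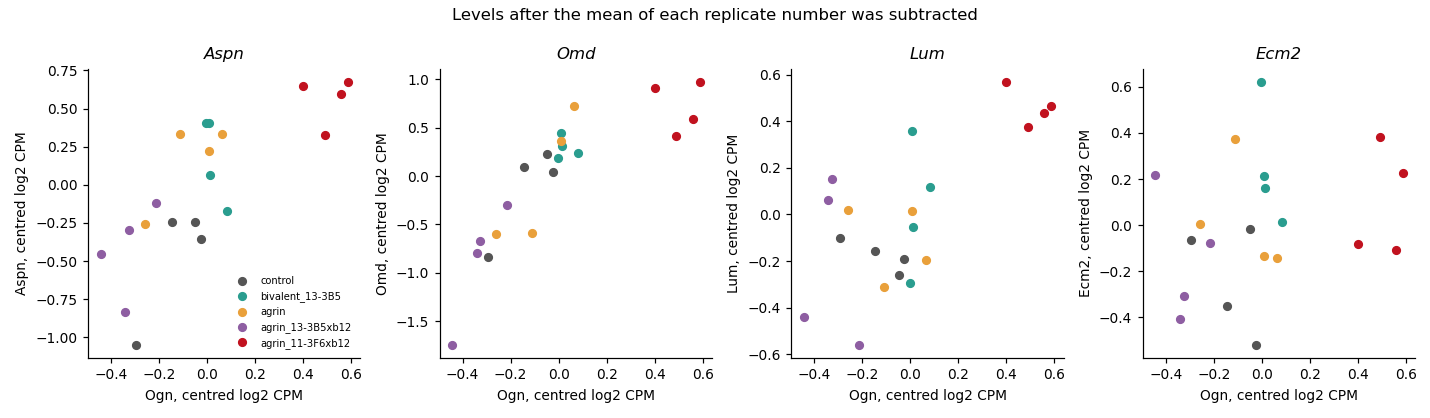
Log2 CPM of Aspn, Omd, Lum and Ecm2 (vertical axes) against that of Ogn (horizontal axes) in 20 libraries, after the mean of the libraries with the same replicate number was subtracted from each. Colours give the treatment, and the libraries with 11-3F6xb12 lie at the right in each panel. Pearson's r is 0.787 for Aspn, 0.841 for Omd, 0.701 for Lum and 0.258 for Ecm2.

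With the mean of each replicate number removed, the profile of Omd was the fourth most like that of Ogn among 11148 genes (Pearson r = 0.841 over 20 libraries). The others among the first 5 were Spon2 (r = 0.959), which encodes the secreted matrix protein spondin 2, Gulp1 (0.865), Ostm1 (0.865) and Mbnl1 (0.840). Aspn had r = 0.787 with Ogn, Lum 0.701, Dcn 0.653, Prelp 0.266, Ecm2 0.258 and Bgn −0.220. For Aspn the 5 most alike were Ccdc122 (0.890), Cav1 (0.888), Tmem38a (0.875), Stk17b (0.860) and Tspan8 (0.828). Without removal of the means of the replicate numbers, Ccdc122 had r = 0.454 with Aspn and rank 1278. These correlations include the libraries for which Ogn and Aspn were chosen and share library effects, so they are a description, as in the plot of Aspn, Omd, Lum and Ecm2 against Ogn.

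Libraries outside 11-3F6xb12, which the choice of Ogn did not single out, were taken separately for replicates 1 and 2 and for replicates 3 and 4 (n = 8 each). Omd followed Ogn with r = 0.920 (two-sided exact permutation p = 0.00779) in replicates 1 and 2 and with r = 0.897 (exact permutation p = 0.00655) in replicates 3 and 4. Spearman's rho was 0.786 (exact permutation p = 0.0279) and 0.810 (exact permutation p = 0.0218). Adjusted over the 16 relations computed, each Pearson p became 0.0623 and did not pass. Without the 2 libraries farthest from the median of Ogn, r fell to 0.416 in replicates 1 and 2, where the relation rests on those libraries, and stayed at 0.864 in replicates 3 and 4. Dcn gave r = 0.528 and 0.837 (adjusted exact permutation p = 0.349 and 0.0823), and Ecm2 gave 0.117 and 0.370 (0.905 and 0.540). Aspn gave r = 0.666 and 0.733 (adjusted exact permutation p = 0.178 and 0.154), which became 0.0330 and 0.420 without the 2 farthest libraries. The other 4 members ran from −0.344 to 0.678. Lum gave 0.503 and −0.147 (adjusted exact permutation p = 0.372 and 0.846), Bgn −0.344 and 0.678 (0.540 and 0.154), Prelp −0.202 and 0.602 (0.614 and 0.283) and Fmod 0.108 and 0.487 (0.846 and 0.377). None of the 16 relations passed after adjustment.

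Of 8 further family genes listed, 7 were in the table. Podnl1 was at 16.7 to 27.9 CPM and Tsku, which encodes the secreted signalling modulator tsukushi, at 4.42 to 8.26 CPM. Their log2 fold changes for 11-3F6xb12 against 13-3B5xb12 were −0.11 (SE 0.13) and −0.04 (SE 0.18), with edgeR adjusted p-values of 0.992 and 0.997. Kera, Epyc, Optc, Nyx and Podn had at most 15 counts in any library and were not tested, and Kera and Epyc were at 0 in 19 of 20 libraries each.

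Genes for the collagens that these proteins bind, for their ligands and receptors, for the synthesis of their sugar chains and for matrix processing were compared in the same way. Against 13-3B5xb12, edgeR called 0 of 12 tested collagen genes, 0 of 11 ligand and receptor genes, 0 of 19 chondroitin or dermatan sulfate genes, 0 of 6 keratan sulfate genes and 0 of 14 matrix-processing genes, with median log2 fold changes between −0.02 and 0.01. The counts against agrin were 0 in each list as well, with 1 gene, Chst13 (0.75, SE 0.31), at an unadjusted p under 0.05, against 3.33% of all tested genes. By smallest p against 13-3B5xb12, the ligand and receptor genes were led by the receptor genes Igf1r at −0.28 (SE 0.12) and Met at 0.20 (SE 0.09) and by Bmp4 at 0.39 (SE 0.20), the chain genes by Chpf2 at −0.22 (SE 0.09), Chst11 at −0.28 (SE 0.14) and Chst13 at 0.48 (SE 0.31), and the collagens by Col5a3 at −0.36 (SE 0.25), Col6a3 at 0.08 (SE 0.12) and Col6a2 at 0.12 (SE 0.27). The keratan sulfate genes were led by B4galt1 at −0.14 (SE 0.08), Chst5 at 1.27 (SE 0.96) and B4galt4 at 0.06 (SE 0.14), and matrix processing by Adamts4 at −0.21 (SE 0.11), Pcolce at 0.11 (SE 0.07) and the collagen crosslinking enzyme gene Lox at −0.14 (SE 0.09). Of these 15 genes, Igf1r, Met and Chpf2 had an unadjusted p under 0.05, and the smallest edgeR adjusted p was 0.992. No other tested gene of these lists had an unadjusted p under 0.05, so Igf1r, Met and Chpf2 were the only ones in all the lists. Of all tested genes, 4.22% had such a p. The 15 were picked by smallest p, so neither their share nor that of the remaining genes is read against that value.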

How the data were processed

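Whole-number counts per gene and library were deposited as a single table of 20 libraries (TruSeq Stranded Total RNA, Ribo-Zero, per the labels' protocols). The authors' counts are not normalized. The submitters' processing notes name Trim Galore 0.6.6, cutadapt 2.10, STAR 2.7.6a, HTSeq 0.12.4, DESeq2 1.32.0 and GRCm38. Their roles, settings, strand option and annotation release are not given in the sources used here. Positions are those of GENCODE M21 and upstream windows those of RefSeq. Detection limits cover counting error only, while SEs come from the edgeR fit and SDs from the spread between libraries.

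Here edgeR 4.0.16 in R 4.3.3 was used: filterByExpr (minimum count 10, minimum total 15), TMM factors, and a robust quasi-likelihood fit of all 20 libraries with treatment only (15 residual degrees of freedom), two-sided, adjusted by Benjamini-Hochberg over 14605 genes. On simulated data for 11-3F6xb12 against agrin over 14605 genes, it recovered 61% of 1.5-fold and 94% of 2-fold changes, and also called 10 unchanged genes. The simulated shift of each replicate number was set and not taken from these data. Changes were placed only in genes above a minimum level. Omd, Ecm2 and Fmod (means of 5.32, 4.23 and 0.839 CPM) lay below that level, so these recovery rates do not apply to them. Log2 CPM used a prior count of 2. No 2 replicates agreed within sampling noise (chi-square of at least 5.17 per gene).

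The replicate numbers come from the sample titles. Same-number libraries deviated together with r above 0.1 in 24 of 28 pairs. Every pair did so in 11-3F6xb12 against agrin and against bivalent 13-3B5, in 13-3B5xb12 against agrin and in bivalent 13-3B5 against control. There the numbers were taken as pairing, and a blocked value stands beside a result where it changes a call. In the other comparisons the lowest r was 0.0952, 0.0528 and 0.00824.

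Members are named whatever their values, as are the genes within 300 kb of Ogn or Aspn, the 3 genes of each pathway list with the smallest p between the monovalent antibodies, and the 5 genes most like Ogn and Aspn. Members and lists were chosen with earlier results of these data known, and the motifs after the counts had been seen. Alternatives were the block, DESeq2 1.42.0 size factors and its Wald test, filters, fewer groups, removal of the mitochondrial ribosomal RNA genes over 1% of a library, and left-out libraries.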

Additional observations from a re-analysis of the deposited data

Results flagged for a closer look

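A single library lay far from the other 3 of its treatment for 3 members. Ecm2 was at 7.18 CPM in agrin replicate 2, with the others at 3.25 to 3.82 CPM. Bgn was at 283 CPM in control replicate 2, with the others at 153 to 166 CPM, and Prelp was at 19.1 CPM in the same library, with the others at 8.13 to 9.63 CPM. Among the 45 gene and treatment groups examined, chance gives 2.25 such libraries. Fmod with 11-3F6xb12 was higher than with 13-3B5xb12 in replicates 1 and 2, by a mean of 1.77 in log2 CPM, and lower in replicates 3 and 4, with a mean of −0.84. The differences were 0.47 in replicate 1 and 3.07 in replicate 2, where the 13-3B5xb12 library held 3 counts, the limit of detection. All 4 libraries with 11-3F6xb12 held between 7 and 41 Fmod counts and those with 13-3B5xb12 between 3 and 25. The difference between the replicate numbers was not tested.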

How the results depend on the processing

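Log2 fold changes of the antibody for which Ogn and Aspn were chosen were recomputed against agrin, the control and the other monovalent antibody. The fold changes of the other comparisons, among them that with the bivalent antibody, were not recomputed. Of 648 recomputed values of the members, 617 kept their direction and 31 turned, all of them of Ecm2, Bgn, Fmod or Prelp. Those of Omd, Lum and Dcn kept theirs under every alternative run of these comparisons. So did those of Ogn and Aspn, which were chosen for this difference, so theirs are a description.

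The counts of called genes depend on the pairing and on the filter, and the cause was not tested. With the replicate block, edgeR called 2, 3, 5 and 1 genes for 11-3F6xb12 against agrin, control, 13-3B5xb12 and bivalent 13-3B5, of which 1, 2, 2 and 1 were members (Ogn, and Aspn against control and 13-3B5xb12), and 0 in the other comparisons. Ogn and Aspn were chosen for their level with 11-3F6xb12, so their calls here and below are a description and not a test. No member other than Ogn and Aspn was called with this block. In the comparisons where the numbers do not pair every library this block is only a setting, and in 16 of the 28 same-number pairs of the 7 comparisons, which reuse libraries, the library correlated best with its own number. The block with 1 replicate number left out gave 1 to 2 genes against agrin, 1 to 3 against control, 3 to 8 against 13-3B5xb12 and 0 to 1 against bivalent 13-3B5, with 1, 1 to 2, 1 to 3 and 0 to 1 members. The block without both libraries that stood apart gave 17, 5, 16 and 4 genes with 1, 2, 3 and 1 members, and 1 gene for 13-3B5xb12 against agrin. The block without agrin replicate 3 gave 2, 2, 8 and 1 genes with 1, 1, 3 and 1 members. With no filter on low counts the numbers were 13, 13, 27 and 6 genes with 1, 2, 3 and 1 members, 6 genes with 1 member (Omd) for 13-3B5xb12 against agrin, 4 for agrin and 2 for bivalent 13-3B5 against control. Only replicates 1 and 2 gave 1 gene against agrin and 6 genes with 3 members against 13-3B5xb12. Only replicates 3 and 4 gave 9, 5, 7 and 1 genes with 1, 1, 1 and 0 members. DESeq2's Wald test gave 1 gene, a member, against 13-3B5xb12. The other settings without the block gave 0 genes in every comparison. For Omd against 13-3B5xb12, the edgeR adjusted p with the block was 0.0589, and it was 0.0448 without replicate 4, 0.0410 without both libraries that stood apart and 0.0143 without agrin replicate 3. For the replicate number, no filter gave 1337 of 26190 genes with 5 members. Leaving out both libraries that stood apart gave 1762 of 14876 genes with 4 members.

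The turned log2 fold changes are as follows. Against agrin, Ecm2 was −0.038 with the block and without replicate 4, −0.080 in replicates 1 and 2, and −0.18 to 0.39 when 1 library was left out. Bgn against agrin was 0.013 with the block and without replicate 3 and 0.055 in replicates 1 and 2. Fmod against agrin was 0.96 with the block and without replicate 3, 0.79 with the block and without agrin replicate 3, 1.06 in replicates 1 and 2, and −0.89 to 0.66 when 1 library was left out. Prelp against agrin was −0.044 and −0.18 with the block and without replicate 2 or 4, −0.18 in replicates 3 and 4, and −0.035 to 0.29 when 1 library was left out. Against control, Fmod was −0.041 with the block and without replicate 1, −0.34 in replicates 3 and 4, and −0.64 to 0.69 when 1 library was left out. Against 13-3B5xb12, Fmod was −0.55 with the block and without replicate 2, −1.15 in replicates 3 and 4, and −0.052 to 1.08 when 1 library was left out. Bgn against 13-3B5xb12 was 0.031 with and 0.0042 without the block when both libraries that stood apart were left out (the latter chosen after seeing the data), and −0.16 to 0.0041 when 1 library was left out. Of the 20 recomputed likenesses, 13 stayed among the first 5 genes and 7 did not, Omd ranking 19 for Ogn without the subtraction. Low counts limit Fmod most.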
